A study of Mus musculus and Homo sapiens with 22 samples.

Results

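Sites at annotated transcript starts are the m6A sites of 3 lists, those of HEK293T cells, mouse embryonic stem cells (mESCs) and mouse heart RNA at 1 µg input, that lie within 2 nt of the first base of any annotated transcript on the same strand. They numbered 257 of 108433 listed sites. The HEK293T list held 166 of 36556 (0.454%, 95% Wilson interval 0.390 to 0.528), the mESC list 33 of 25456 (0.130%, 0.0923 to 0.182) and the heart list 58 of 46421 (0.125%, 0.0967 to 0.161). HEK293T is a human embryonic kidney line, from which 4 miCLIP2 samples were made. The mESC list is that of wild-type (WT) cells, and Mettl3 knockout (KO) mESCs, a published line without a functional gene for the catalytic subunit of the m6A writer, were profiled beside them. Each mESC genotype had 4 miCLIP2 samples, which are 3 replicates with replicate 1 run as a technical pair, and 3 RNA-seq libraries. The heart RNA was bought as poly(A)+ RNA and gave 1 library at each of 4 inputs. A list holds 1 score per site for all its samples together and no read depth, so no value of a site has a spread between replicates, and the intervals given here cover counting error only.

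Transcripts of RNA polymerase II receive a 7-methylguanosine cap, and where the first transcribed base is an adenosine, PCIF1 can convert it to N6,2′-O-dimethyladenosine (m6Am), which FTO can reverse. Antibodies against m6A also bind m6Am. N6-methyladenosine inside transcripts is written by METTL3 with METTL14 at DRACH, where D is A, G or T, R is A or G and H is A, C or T. In miCLIP2 an antibody is crosslinked to RNA, reverse transcription stops beside it, and the site is placed 1 nt upstream of the 5′ end of the read. An m6Am next to a cap, an internal m6A and a read that ends where the RNA ends cannot be told apart from these lists. From its reads the study reported signal gathered at transcript starts in mESCs, which was not reduced in Mettl3 KO cells. It proposes that this signal likely reflects m6Am.

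The members were divided by what else the annotation holds at the same place. A site was outer where no longer transcript on its strand began more than 10 nt upstream and ran across it, internal where it lay in an exon of such a transcript, and intronic otherwise. Of the 166 HEK293T sites 25 were outer, 132 internal and 9 intronic. The 33 mESC sites divided into 2, 30 and 1, and the 58 heart sites into 15, 41 and 2. Most start sites therefore lay inside an exon of a longer transcript of the same strand.

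The sequences of outer sites are shown to set the listed adenosine against the annotated start. Each runs 5′ to 3′ over 21 bases with the listed adenosine as the 11th base. Lower case lies upstream of the annotated start, and capitals run from the first annotated base on. The coordinates are GRCh38 for human and GRCm38 for mouse. The first 6 human sites lay 2 nt upstream of the start. The letters AC before it follow from that position, since the listed base is A and C follows it at 98.7% of all HEK293T sites. These 6 sites were chosen for display after their values were seen. All 6 have A as the first annotated base, as did 16 of the 21 outer or intronic HEK293T sites at −2.
PRDX6, chr1:173477328, plus strand: gcgcgctgggacAGGCTGCTT
PSMB3, chr17:38752739, plus strand: caatgaagagacAGCAGTGAG
TSPO, chr22:43151545, plus strand: ggatgcggggacAGCGGCCTG
UBE2Z, chr17:48908405, plus strand: gggggtggggacACTCTGGCC
LRRC59, chr17:50397525, minus strand: ggtgacgtggacACGGAAGTG
CITED2, chr6:139374650, minus strand: gccctaagaaacACAGCTCAT
The highest-scoring outer sites of HEK293T cells with a printed sequence followed another arrangement, and 4 of these 5 had the adenosine at or after the annotated start.
ZIC2, chr13:99981786, plus strand: ctggctttGGACTCTTCTCCT
KRR1, chr12:75511635, minus strand: gggtttaagAACAGTTTCATT
ENSG00000250519, chr11:94185440, plus strand: cacagaagtGACTTAGCCAAG
OST4, chr2:27071649, minus strand: caggtctctgACTTCGGGCTT
TYW3, chr1:74733150, plus strand: ggaagtttggacCTTTTCGGC
In heart the highest-scoring outer sites, apart from that of mt-Rnr2, lay 1 or 2 nt upstream of the start. The mt-Rnr2 site, also listed in mESCs, is shown last.
Slc16a1, chr3:104638666, plus strand: gccccgccagacAAAGTGGCG
Trim63, chr4:134315118, plus strand: tcagaccaagacAGAAGTCGG
Csrp3, chr7:48848034, minus strand: gagtccccttaCTCAGTTGAG
Eno3, chr11:70657201, plus strand: gagggggtgaaCTGACACTGT
Atp5mpl, chr12:111966979, minus strand: gtgctctgtgacCTTTCCCAT
mt-Rnr2, chrM:1094, plus strand: aacactctgaACTAATCCTAG

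Outer and intronic sites were concentrated 2 nt upstream of the start in HEK293T cells and heart. In HEK293T cells 14 of the 25 outer sites and 7 of the 9 intronic ones lay at −2, none at −1, and 5 outer and 2 intronic sites at 0. In heart 8 of the 15 outer sites lay at −2, 2 at −1, 1 at 0, 1 at +1 and 3 at +2. A site at −2 stands for reads that begin 1 nt upstream of the annotated start, because a site is set 1 nt before its reads. Internal sites were spread over the window, with 30, 23, 34, 17 and 28 HEK293T sites from −2 to +2. All classes together, 41 HEK293T sites, 6 mESC sites and 6 heart sites fell on the first annotated base itself. At the edge of the window 80 HEK293T sites lay 2 nt from a start and 45 lay 3 nt from one, with median scores of 0.615 each. The counts were 20 and 18 in mESCs (medians 0.576 and 0.753), and 36 and 15 in heart (9.57 and 18.8).

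**Figure D1:**
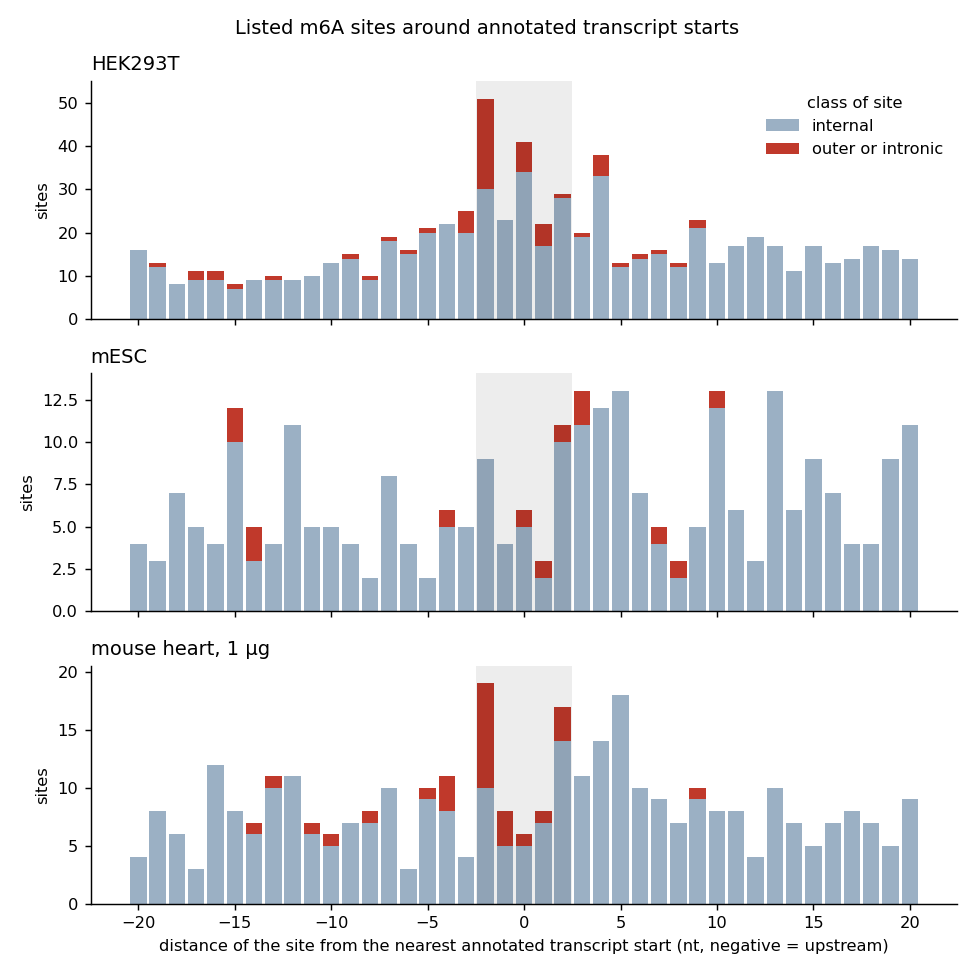
Listed sites by distance from the nearest annotated transcript start (x axis, nt, negative is upstream), as counts (y axis) stacked by class in 3 lists, with the 2 nt window shaded. The red bar of outer or intronic sites is highest at −2 in HEK293T cells (21 sites) and in heart (9 sites), and is at 0 there in mESCs.

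Counts of sites depend on where DRACH letters occur, so the share of DRACH adenosines listed was taken at each position, for genes with a site. At outer and intronic starts 16 of 478 DRACH adenosines at −2 were listed in HEK293T cells (3.35%, interval 2.07 to 5.37), against 0 of 209 at −1 (upper bound 1.80%) and 5 of 207 at 0 (2.42%). Over the window of 2 nt the share was 1.48% (25 of 1685, 1.01 to 2.18), above 0.265% (7 of 2645, 0.128 to 0.545) from −10 to −3 and 0.492% (12 of 2441, 0.281 to 0.857) from 3 to 10. In heart 9 of 336 adenosines at −2 were listed (2.68%, 1.42 to 5.01), and the window share of 1.11% (0.687 to 1.80) likewise lay above the flanks, 0.162% (0.0632 to 0.417) upstream and 0.0407% downstream. In both lists the interval of the window did not overlap those of its flanks. The window and the upstream flank were, however, not counted on equal terms. A gene with no site in an exon entered through a site within 2 nt of its start, but not through a site further upstream. In mESCs 0 of 270 adenosines at −2 were listed, and the window held 3 of 1124 (0.267%), beside 1 of 1923 (0.0520%) upstream and 5 of 1912 (0.262%) downstream. The m6Aboost classifier that chose the sites of the lists was trained on peaks of these mESCs. Peaks at A that were not lower in KO served as its negative set. The part of this training in the mESC values was not tested.

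Over the window as a whole internal starts did not show a comparable step. In HEK293T cells 4.14% of DRACH adenosines in the window were listed (112 of 2707, 3.45 to 4.95). The flanks had 3.59% upstream (3.01 to 4.29) and 2.96% downstream (2.48 to 3.53), and both intervals overlapped that of the window. The highest single value, 6.68% (28 of 419, 4.66 to 9.49), was on the first annotated base, with an interval above those of both flanks. At −2 the internal share was 4.24% (25 of 589, 2.89 to 6.19). The mESC values were 1.90% in the window, 1.65% upstream and 2.51% downstream, and the heart values 2.15%, 2.04% and 2.68%. In mESCs and heart the window share thus lay between those of its flanks. Only the share of listed adenosines was compared, since the reads behind a site were not analysed here.

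**Figure D2:**
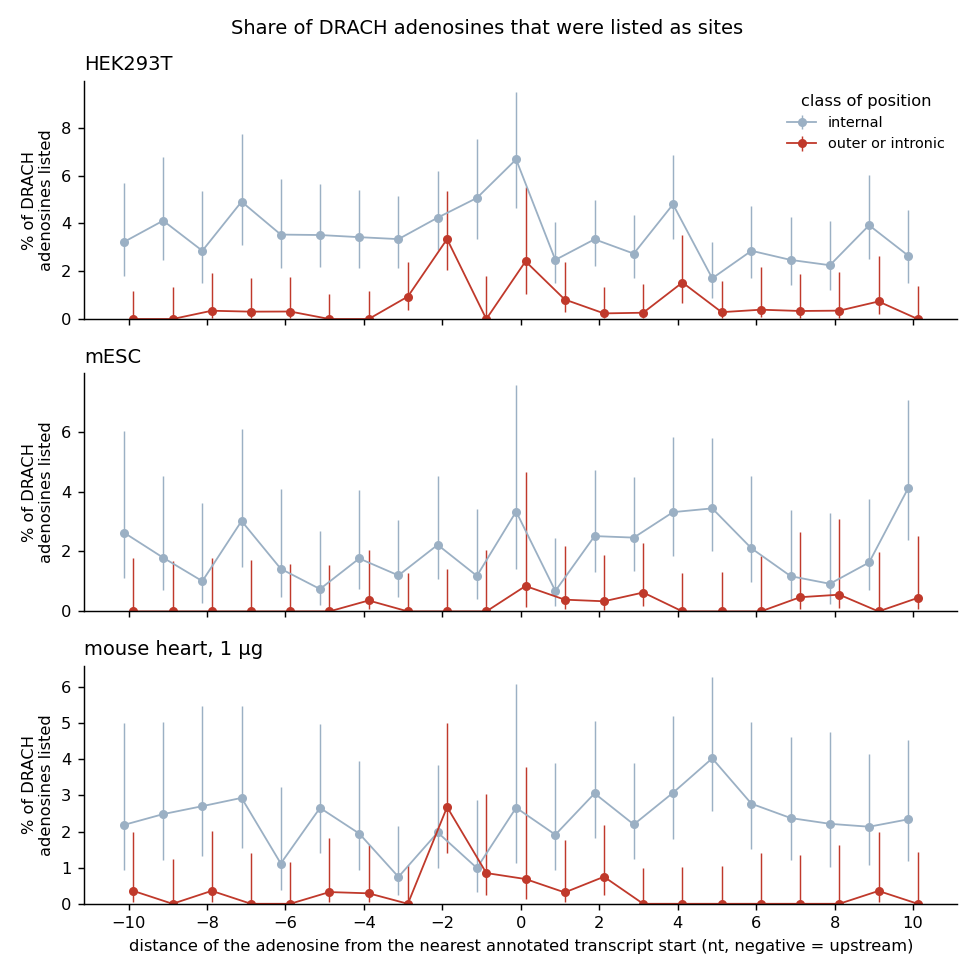
Share of DRACH adenosines listed as sites (y axis, percent) against distance from the nearest annotated start (x axis, nt), with 95% Wilson intervals as bars, for internal positions (blue) and outer or intronic ones (red). The red line peaks at −2 in HEK293T cells (3.35%) and heart (2.68%) and stays below 1% in mESCs.

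The letters across the start were read next. CA is the common initiator dinucleotide, with C before and A at the first transcribed base. Of the 21 outer or intronic HEK293T sites at −2, 16 had CA there (76.2%, interval 54.9 to 89.4), against 18.7% of the 26252 outer or intronic starts of genes with a site. In heart 7 of 9 had CA (77.8%), against 15.2% of 22302 starts. For a site at −2 the DRACH letters themselves place C at −1 and bar G after it. A was first at 320 of the 478 DRACH candidates at −2 in HEK293T cells (66.9%) and at 15 of the 16 listed (93.8%), with intervals of 62.6 to 71.0 and 71.7 to 98.9. In heart the shares were 59.5% of candidates (54.2 to 64.6) and 77.8% of the 9 listed (45.3 to 93.7), with intervals that overlap.

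At start sites in general DRACH was somewhat rarer than elsewhere in the HEK293T list, at 137 of 166 (82.5%, interval 76.0 to 87.6) against 89.3% of other sites. It was found at 19 of 25 outer sites and 6 of 9 intronic ones. Within the 5′ UTR, where 70 of the 166 HEK293T members lay, the shares were 78.6% (67.6 to 86.6) against 93.4% of the other 5′ UTR sites. In mESCs the share was 87.9% against 92.9%, and in heart 91.4% against 93.1%. The trimer ACA at the site was more frequent among members, at 30.1% against 21.8% in HEK293T cells. The shares were 24.2% against 17.5% in mESCs and 37.9% (26.6 to 50.8) against 19.8% in heart. In HEK293T cells ACA stood at 16 of the 21 outer or intronic sites at −2. For a site at −2 these are the same letters as CA across the start, so this is not a separate result. Internal HEK293T sites had ACA in 25% of cases, with an interval that includes 21.8%. Internal heart sites had it at 14 of 41 (34.1%, 21.6 to 49.5). The pentamer GGACA made up 36 of 166 HEK293T members (21.7%; 13.3% of the list), 6 of 33 mESC members and 16 of 58 heart members (27.6%; 12.8% of the list). Because sequence is an input of the m6Aboost classifier that chose the sites, these shares are a description and were not tested.

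The score of a HEK293T or mESC site is the m6Aboost prediction score, a value that also uses the transcript region and the signal at the site. Start sites scored lower than the rest of their lists. In HEK293T cells their median was 0.622 (quartiles 0.545 and 0.736), against 0.715 (0.612 and 0.815) for other sites, and 49 of 166 (29.5%) reached the median of the list. Outer sites had a median of 0.568 and intronic ones 0.525, and none of the 21 outer or intronic sites at −2 reached the list median, the highest being TYW3 at 0.686. In mESCs the median was 0.645 against 0.745. The region moved with this difference: within the 5′ UTR the HEK293T medians were 0.569 for start sites and 0.610 for others, and the mESC medians 0.576 and 0.617, while in coding sequence they were 0.727 and 0.691 in HEK293T cells and 0.704 and 0.709 in mESCs. The part of the region in the score was not tested further.

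In heart the deposited score lies on another, unstated scale and is used here as a rank within the list. Heart members as a whole ranked near the middle, with a median percentile of 45.6. The outer ones ranked high, with a median at percentile 85.9 and 11 of 15 above the median of the list (73.3%, interval 48.0 to 89.1). Internal heart sites had a median percentile of 42.9. Outer sites of HEK293T cells lay above their median in 4 of 25 cases, but the scores of these lists are of different kinds and no test sets them against each other.

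**Figure D3:**
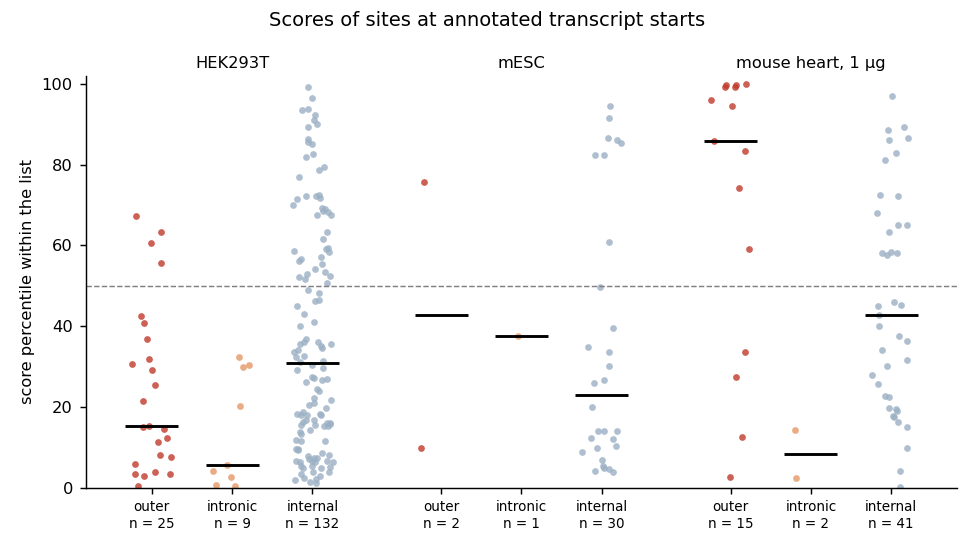
Score percentile of each start site within its own list (y axis), by list and class (x axis), with 1 point per site and a black bar at the median. Outer heart sites lie mostly above the dashed 50th percentile (11 of 15), and outer HEK293T sites mostly below it (21 of 25).

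The outer sites of HEK293T cells belonged to genes of many functions. The highest scores were those of ZIC2, a zinc finger transcription factor, at 0.784 and +2, KRR1, a factor of small ribosomal subunit assembly, at 0.767 and +1, the gene ENSG00000250519 at 0.756 and +1, and OST4, a small subunit of the oligosaccharyltransferase, at 0.738 and 0. TYW3, of wybutosine synthesis in tRNA, followed at 0.686 and −2, and NEFM, a neurofilament subunit, at 0.678 and +1. The sites at −2 shown above scored 0.662 in PSMB3, a proteasome subunit, 0.643 in LRRC59, 0.638 in CITED2, a transcriptional coactivator, 0.631 in UBE2Z, 0.565 in PRDX6, a peroxiredoxin, and 0.551 in TSPO, a protein of the outer mitochondrial membrane. Outer or intronic adenosines on the first annotated base itself were listed for IARS2, IMPDH1, MANSC1, OST4, PPIF, CLPTM1 and KARS1, of which IARS2 and KARS1 encode aminoacyl-tRNA synthetases. Over all classes the 166 sites lay in 162 genes, among them 1 ribosomal protein gene, RPS15, 4 loci with a symbol that begins with ZNF (ZNF232-AS1, ZNF584-DT, ZNF638 and ZNF768) and no replication-dependent histone gene.

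After mt-Rnr2, the 5 highest-scoring outer heart sites lay in Slc16a1, Trim63, Csrp3, Eno3 and Atp5mpl. Trim63, a ubiquitin ligase of striated muscle, scored 549 at −2 (percentile 99.7), Csrp3, the muscle LIM protein, 347 at −1 (percentile 99.2), and Eno3, the muscle form of enolase, 319 at −1 (percentile 99.1). Slc16a1, a lactate and pyruvate transporter, scored 620 at −2 (percentile 99.8), and Atp5mpl, an ATP synthase subunit, 129 at −2 (percentile 95.9). Lower outer sites included Lbh at 106, Insyn1 at 49.9 and Epas1, the hypoxia-inducible factor HIF-2α, at 42.8, and Ddx5 came last at 0.495 (percentile 2.67). Of the 15 outer heart sites 9 also lay within 2 nt of a RefSeq transcript start. Those of Slc16a1, Trim63, Lbh, Insyn1, Ddx5 and mt-Rnr2 were among them, and those of Csrp3, Eno3, Atp5mpl and Epas1 were not. The heart list as a whole held 195 sites in Ttn, 23 in Ryr2, 2 in Tnnt2, 1 in Myh6 and none in Actc1 or Nppa, while the mESC list held none in any of these heart muscle genes.

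Eno3 was the member that persisted at the lowest input. Its site at −1 scored 319, 37.5, 31.01 and 7.18 in the lists of 1 µg, 300 ng, 100 ng and 50 ng, where it stood at percentiles 99.1, 93.1, 95.1 and 76.2. Epas1 was listed down to 100 ng, and Lbh and mt-Rnr2 down to 300 ng. The list names and the study's text give the 3 smaller inputs in ng, which is used here, whereas the sample titles give µg. Of the 58 members at 1 µg, 11 were listed at 300 ng (19.0%), close to the 17.8% of other 1 µg sites, and the lists at 300, 100 and 50 ng held 14 start sites of 8845, 2 of 1112 and 1 of 248. Each input was 1 library, so these values have no replicate check.

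The mitochondrial 16S rRNA gene mt-Rnr2 had the only outer site common to the mESC and 1 µg heart lists. The rRNAs of mitochondria are cut from a long precursor and carry no cap of the nuclear kind. The site, on the first base of the gene at chrM:1094, scored 0.839 in mESCs (percentile 75.8), 708 in heart at 1 µg, the highest value of that list, which 61 sites share, and 60.6 at 300 ng (percentile 96.5). It was the single mitochondrial site of the mESC list and one of 3 in heart, where another, at chrM:5324 with a score of 474, lay 4 nt upstream of an annotated start. The HEK293T list held 0 mitochondrial sites.

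Internal members were found at all depths of the longer transcript. Distance was taken from the most upstream start of any transcript, of whatever gene, with an exon at the site. It had a median of 401 nt of genome in HEK293T cells, 802.5 nt in mESCs and 4414 nt in heart, and exceeded 1000 nt for 52 of 132, 15 of 30 and 27 of 41 sites. In a longer transcript 59 of the 132 HEK293T sites lay in the 5′ UTR, 52 in coding sequence, 10 in the 3′ UTR and 11 in noncoding exons. In heart 25 of 41 lay in coding sequence and 8 in the 5′ UTR. The matched transcripts were models tagged as lacking a known 5′ end in 23 HEK293T, 8 mESC and 13 heart members, all of them internal. Retained-intron models were matched by 26, 6 and 11 members of the 3 lists.

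High-scoring internal sites are shown to set their letters against those of outer sites. Human symbols mark sites of HEK293T cells, Pim3 to Kdm5a are those of mESCs, and Atrx and Gm26377, also listed in mESCs, are shown for heart.
WDR74, chr11:62833069, minus strand: agacagatgaacTTTGGGCAT
MLLT6, chr17:38725757, plus strand: ggtgtcgaggACTGAGACTGA
TSEN54, chr17:75516814, plus strand: ggccccaaggaCTTTCTGCCC
BRD8, chr5:138164954, minus strand: gaatacatgaacTGGTGGACA
Pim3, chr15:88864919, plus strand: gcctttttgaaCGCTGCTCCA
Setd2, chr9:110573883, plus strand: aatagcatggaCAGTGCAGTC
Kdm5a, chr6:120427239, plus strand: ccacagatgaACTGTCCTCTG
Atrx, chrX:105875264, minus strand: caggagtgggACTCTTCCTCT
Gm26377, chr9:78478633, minus strand: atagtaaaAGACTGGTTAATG
The HEK293T scores were 0.961 in WDR74, a ribosome assembly factor, 0.927 in MLLT6, 0.906 in TSEN54, a subunit of the tRNA splicing endonuclease, and 0.904 in BRD8, a bromodomain protein. The MLLT6 site lay in the 3′ UTR of a longer transcript and the other 3 in coding sequence. In mESCs Pim3, a kinase, had 0.920 in the 3′ UTR, Setd2, the H3K36 methyltransferase, 0.903, and Kdm5a, an H3K4 demethylase, 0.879, both of the latter in coding sequence. Of the 6 mESC sites of any class on a first annotated base 5 lay above the median of the list (interval 43.6 to 97.0%), with a median score of 0.869. The outer mt-Rnr2 site is among the 6. In HEK293T cells 11 of 41 such sites reached the median of their list (26.8%), and in heart 3 of 6. In heart the highest internal sites were Gm26377 at 160, Pim3 at 63.2, Kdm5a at 59.8 and Atrx, a chromatin remodeller, at 51.7.

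Some matched starts were those of small RNA genes annotated inside exons. These were miRNA or snoRNA models at 2 HEK293T members (MIR4687 and SNORA67), 3 mESC members (Mir5114, Snora61 and Gm26377) and 4 heart members (Mir5114, Mir671, Gm26377 and Gm25091), all internal. The Gm26377 site lay in the 3′ UTR of Eef1a1, which encodes a translation elongation factor. In these lists a site in the exon of the longer RNA cannot be told apart from one at the end of the small RNA.

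Start sites had fewer neighbours than other sites. Another site lay within 100 nt of 41 of 166 HEK293T members (24.7%), against 68.3% of other sites, and of 3 of the 25 outer ones. In mESCs the shares were 18.2% and 52.4%, and in heart 25.9% and 57.6%, with 1 of the 15 outer sites. These shares were counted on genomic distance and were not tested. No longer annotated transcript runs across an outer site from upstream, so neighbours on that side were limited by the definition of the class. Neighbours of the other 5′ UTR sites were not counted apart.

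Of the 33 mESC members 14 were in the 1 µg heart list (42.4%, interval 27.2 to 59.2), against 59.6% of other mESC sites, and these were 24.1% of the heart members, against 32.7% of other heart sites. They were mt-Rnr2, Krr1, Nf2, Usp32, Snx6, Pim3, Ttc3, Paip2, Mir5114, Kdm5a, Gm45799, Gm26377, Setd2 and Atrx. Of the outer heart sites 1 of 15 was shared, and of the internal ones 13 of 41. Both libraries are of the same species and share its annotation and classifier.

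Between species 3 genes of the same symbol had a member, and none was outer in both. The pair for KRR1 is shown because it has an outer site in one species and an internal one in the other.
KRR1, human, chr12:75511635: gggtttaagAACAGTTTCATT
Krr1, mouse, chr10:111972755: atcttaaagaacAGTTCCACT
In NUTF2, a nuclear import factor, 20 of the 21 letters were identical, with scores of 0.680 in HEK293T cells and 0.586 in mESCs, and the annotated start lay 2 nt further downstream in the mouse. In KRR1 15 of 21 were identical, with scores of 0.767 and 0.565. The site of PAIP2, which binds the poly(A)-binding protein, lay at +2 in both species and scored 0.652 in HEK293T cells and 0.685 in mESCs.

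The RNA-seq libraries of WT and Mettl3 KO mESCs ask how the host genes of mESC start sites differ between the genotypes. They held 22746733 to 27254245 counts in genes. Mettl3 itself had 26.4, 26.6 and 28.9 TMM-normalised CPM, counts scaled to a common library total, in the WT libraries and 18.4, 22.6 and 16.9 in the KO libraries. All KO values lay below all WT values, with a log2 fold change of −0.50 ± 0.14 (SE, n = 3 per genotype) and an edgeR adjusted p of 0.0134 that missed the threshold of 0.01 (0.00281 with the replicate number as a block), so RNA of the gene was still counted in KO cells. Over all genes 4669 of 15731 tested passed the threshold (29.7%), 17.1% higher and 12.6% lower in KO, and with library sizes alone in place of TMM scaling the split was 2937 higher and 1199 lower. The fit with the replicate block called 43.5% of all genes. No label pairs the libraries by replicate number, so a pass in that fit alone is not counted as a call here. Fewer cells of a type and less RNA per cell cannot be told apart in such libraries. Of 8 stem cell markers, Dppa5a and Utf1 were lower in KO (log2 fold changes −1.68 and −1.25, adjusted p = 2.25e-05 and 0.00021), none was higher, and Pou5f1, Nanog and Sox2 did not pass. Esrrb had 494, 566 and 522 CPM in WT and 726, 725 and 675 in KO, which did not overlap, and just missed the threshold (0.43 ± 0.11, adjusted p = 0.0106, and 0.00191 with the block). Of 7 markers of fibroblasts, on which the study grew these cells for RT-PCR, Thy1 was higher in KO (6.08 against 2.66 CPM, adjusted p = 0.00206), Col1a1 had 0.658 in KO against 1.15 in WT (−0.81 ± 0.34, adjusted p = 0.0737), and Postn, Lum, Dcn, Col3a1 and Col1a2 had group means of at most 0.27 CPM. The part of these cells in the results was not tested.

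Of 38 genes with a matched start or an exon at an mESC start site 34 were tested, and 7 fell and none rose in KO, or 20.6% called beside 29.7% of all genes and 12.6% lower among all genes. Their median log2 fold change was −0.31, against −0.02 over all genes, and 20 of the 34 had WT and KO values that did not overlap (56.1% of all genes). Among the 6607 tested genes with any mESC site in an exon 31.7% were called, with 14.4% lower and a median of −0.008. With the replicate number as a block 18 of the 34 hosts passed, 16 lower and 2 higher (Setd2 and Nf2), beside 43.5% of all genes in that fit, with 23.5% higher and 20% lower. With library sizes alone 4 were lower and 1 higher, beside 26.3% of all genes (18.7% higher and 7.62% lower), and Tcl1, Paip2 and Kdm5a no longer passed (adjusted p = 0.011, 0.026 and 0.0295). The hosts were well expressed, with a median of 21.02 CPM per kb in WT (quartiles 11.9 and 40.9), against 9.75 for all genes with a site and 3.64 for all genes tested. Neither outer host passed in the fit without the block.

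**Figure D4:**
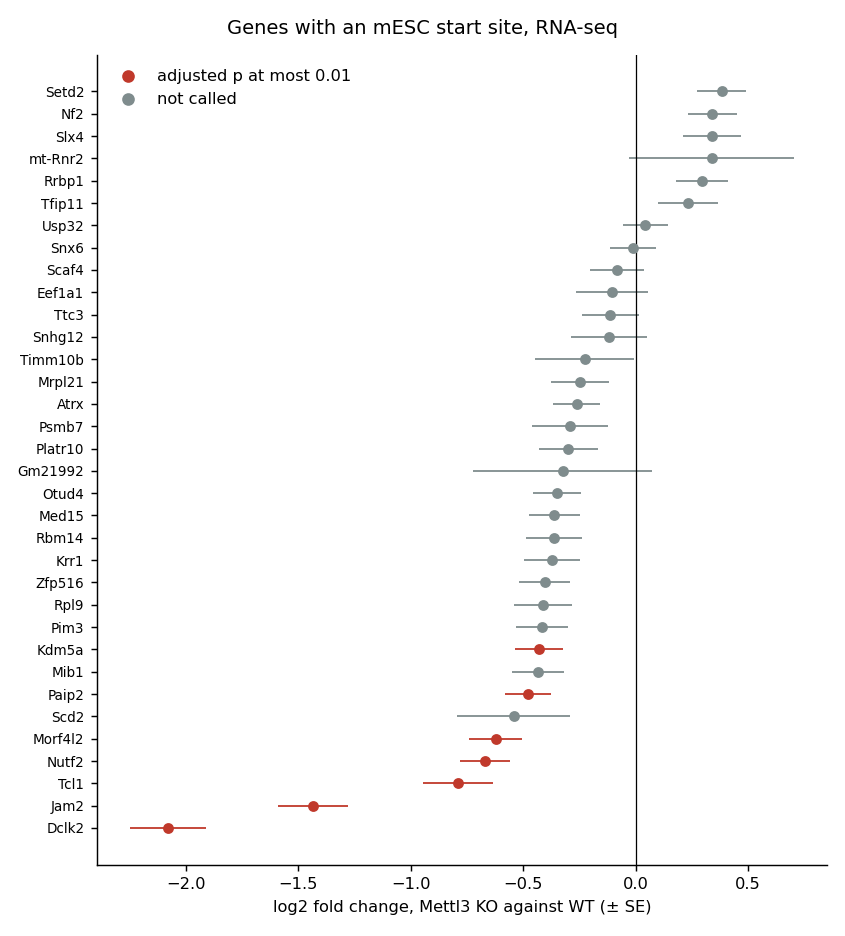
Log2 fold change of KO against WT (x axis, with ± SE bars) for each of the 34 tested host genes of mESC start sites (y axis), in red where the edgeR adjusted p was at most 0.01. The 7 red genes all lie below 0, from Kdm5a at −0.43 to Dclk2 at −2.08.

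The host that fell most was Dclk2, a doublecortin-like kinase, with 127, 138 and 91.8 CPM in WT and 24.8, 32.98 and 26.8 in KO. Its ranges did not overlap, and the log2 fold change was −2.08 ± 0.17 (adjusted p = 1.71e-05). Jam2, a junctional adhesion molecule, had 180, 228 and 227 CPM in WT and 68.6, 96.4 and 69.6 in KO (−1.44 ± 0.16, adjusted p = 8.49e-05). Every KO library again lay below every WT one. Both sites lay 2 nt upstream of an internal start, in the 5′ UTR of a longer transcript, and scored 0.575 in Dclk2 and 0.704 in Jam2.

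Tcl1, a coactivator of AKT kinases, had 47.6, 63.3 and 70.0 CPM in WT and 33.5, 40.2 and 30.995 in KO (−0.79 ± 0.16, adjusted p = 0.0025). Nutf2 had 47.3, 50.0 and 56.5 in WT and 33.2, 30.5 and 33.03 in KO (−0.67 ± 0.11, adjusted p = 0.000924). Morf4l2, a chromatin factor, had 338, 335 and 378 in WT and 245, 199 and 240 in KO (−0.62 ± 0.12, adjusted p = 0.00197). None of these 3 genes overlapped between genotypes. Paip2 had 156, 156 and 143 CPM in WT and 110, 100 and 116 in KO (−0.48 ± 0.10, adjusted p = 0.00359). Kdm5a had 143, 120 and 138 in WT and 96.9, 97.4 and 103.1 in KO (−0.43 ± 0.11, adjusted p = 0.00762). The Kdm5a and Paip2 ranges were apart as well, and the Kdm5a call was lost in 5 of the 6 fits that left out 1 library, all but that without WT replicate 2.

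Otud4, a deubiquitinase and the protein-coding outer host, had 281, 265 and 294 CPM in WT and 214, 238 and 207 in KO. These ranges did not overlap, but the change of −0.35 ± 0.11 missed the threshold (adjusted p = 0.0209, and 0.00698 with the block). The mt-Rnr2 gene had 8966, 3371 and 9125 CPM in WT and 10892, 5548 and 10704 in KO, so replicate 2 was low in both genotypes (0.34 ± 0.37, adjusted p = 0.472). Among internal hosts Setd2 had 190, 165 and 203 in WT and 236, 248 and 244 in KO (0.38 ± 0.11, adjusted p = 0.016, and 0.00328 with the block). Pim3 and Krr1 had log2 fold changes of −0.42 ± 0.12 and −0.37 ± 0.12 (adjusted p = 0.0136 and 0.0308, and 0.00114 and 0.00601 with the block). Rpl9 has processed copies in the genome, and how its counts divide among them was not tested.

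**Figure D5:**
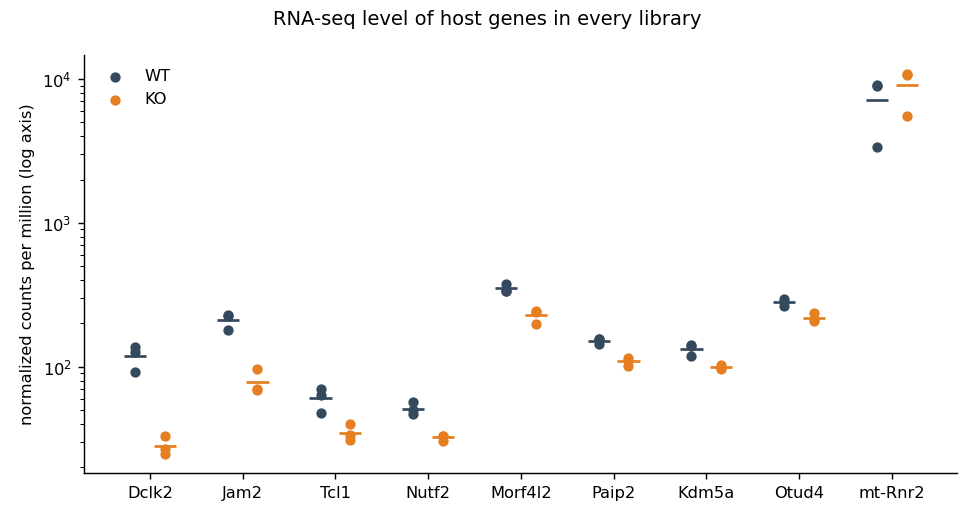
Normalised CPM (y axis, log scale) of the 7 host genes that fell and of both outer hosts, Otud4 and mt-Rnr2 (x axis), with 1 point per library and a bar at the mean of 3 WT or 3 KO libraries. WT and KO points are apart for every gene except mt-Rnr2.

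Genes that make, bind or remove caps were counted in the same fit. Of 8 cap methylation genes 1 rose and 1 fell. Cmtr2, which methylates the ribose of the second transcribed base, had 12.04, 11.3 and 13.5 CPM in WT and 38.0, 32.0 and 40.8 in KO (1.59 ± 0.14, adjusted p = 2.43e-05). Fto had 105, 108 and 97.0 in WT and 77.6, 80.6 and 74.8 in KO (−0.41 ± 0.10, adjusted p = 0.00655). Both genes had ranges that did not overlap. Pcif1, the m6Am writer, had 35.7, 39.6 and 40.5 in WT and 34.5, 41.1 and 32.1 in KO, which overlapped (−0.11 ± 0.12, adjusted p = 0.507). With the replicate block 4 of the 8 passed, Cmtr1 and Rnmt being the other two, both lower, and with library sizes alone Cmtr2 was the single call.

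Of 8 cap-binding genes Larp1, which binds the caps of ribosomal protein mRNAs, rose (0.54 ± 0.12, adjusted p = 0.00348), and 3 fell. These were Eif4e, the cap-binding initiation factor (−0.50, adjusted p = 0.00274), Eif3d (−0.51, adjusted p = 0.00346) and Ncbp1 of the nuclear cap-binding complex (−0.50, adjusted p = 0.00961), and with library sizes alone none of the 3 passed. With the block Ncbp2 of the same complex also rose (0.46 ± 0.10, adjusted p = 0.000887). Of 10 genes of decapping and 5′ decay 2 rose and 1 fell. Nudt16, a decapping enzyme, had 1.98, 1.94 and 1.75 CPM in WT and 7.28, 5.00 and 5.50 in KO (1.64 ± 0.24, adjusted p = 0.000419), and Dxo, a decapping exonuclease, rose by 0.74 ± 0.14 (adjusted p = 0.00182). Edc4, a scaffold of the decapping complex, had 138, 137 and 120 in WT and 63.0, 76.3 and 59.7 in KO (−0.99 ± 0.12, adjusted p = 0.000171). With the block Dcp2, the catalytic decapping subunit, was lower as well (−0.39 ± 0.11, adjusted p = 0.00532). The called shares, 2 of 8, 4 of 8 and 3 of 10, stand beside 29.7% over all genes tested.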

How the data were processed

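m6A sites were taken from the deposited lists, whose score column the authors computed. Per the methods, reads were mapped with STAR 2.7.3a to GRCh38.p12 or GRCm38.p6 with no soft-clipping at the 5′ end, duplicates were removed with UMI-tools 1.0.0, crosslink positions were set 1 nt upstream of read starts (bedtools 2.27.1), PureCLIP peaks were kept when found in at least 2 replicates of a condition (for the heart inputs, 1 library each, the filter is not given in the sources used here), and m6Aboost was applied to peaks at A. The scale of the deposited heart score is not given in the sources used here. Gene counts were made by the authors with STAR 2.6.1b and HTSeq 0.12.4 on the reverse strand and deposited as whole numbers. Versions are those in the methods and the submitters' processing notes. CPM are counts scaled by the TMM-adjusted library size. The lines of the count files that named no gene held 36.7 to 42.7% of the total and were left out.

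Starts were taken from GENCODE 44 (252835 human transcripts, 219303 distinct starts) and M21 (141767 mouse transcripts, 132670 distinct starts), whereas the authors used 31 and M23. Shares carry 95% Wilson intervals. KO was compared with WT by edgeR 4.0.16 (R 4.3.3) quasi-likelihood tests on counts with TMM scaling, with Benjamini-Hochberg adjusted p at most 0.01 over 15731 genes (biological coefficient of variation 0.159), and DESeq2 1.42.0 as an alternative. Of 56196 gene IDs 55154 were in M21. At an unadjusted p under 0.05, 8508 genes passed. Nothing in the labels ties an RNA-seq replicate to its own culture, so p-values measure the spread between these samples. Deviations of same-numbered WT and KO libraries correlated at 0.124, 0.462 and 0.303. WT replicate 3 with KO replicate 1 gave 0.108, close to the value of the replicate 1 pair, and the remaining pairs were negative. The pairing used for the block thus rests on the data rather than the labels, and is weak for replicate 1. No 2 libraries agreed within sampling noise.

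On simulated counts of 14957 genes for this comparison, of 50 genes changed at each log2 size of −2, −1, 1 and 2 the tests called 100, 80, 88 and 100%, and 3 of 14757 unchanged genes. These counts had the same coefficient of variation for every gene and no replicate effect. The shares therefore need not hold for the real libraries. Named were the 6 highest-scoring outer and 4 highest-scoring internal sites of each list, outer sites common to mESC and heart, human and mouse genes of the same symbol, called hosts, and genes of the cap and marker lists. Further names were chosen after their values were seen. One internal mESC site that this rule names is not reported here. The members and lists were chosen with earlier results of these data known. The alternatives changed the distance, the transcripts used, the motif, the scaling, the count filter, the threshold, the replicate block and the libraries, and RefSeq starts were added after seeing the data. Python 3.11.15, pandas 2.3.3, pysam 0.24.0, scipy 1.17.1 and matplotlib 3.10.9 were used. The other miCLIP2 tracks were not used here.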

Additional observations from a re-analysis of the deposited data

How the results depend on the processing

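The number of start sites followed the distance allowed: 41, 86, 305 and 458 in HEK293T cells at 0, 1, 5 and 10 nt, 6, 13, 84 and 140 in mESCs, and 6, 22, 126 and 204 in heart. With the most upstream start of each gene alone it was 30, 5 and 20, and among sites at or above the median score 49, 9 and 28. Well-supported transcripts left 19 in mESCs and 36 in heart, and RefSeq starts 3 and 24, of which 2 and 15 were GENCODE members. The DRACH share was 98.0% in HEK293T sites at or above the median score, and 100% at 0 nt in mESCs and heart. The share at or above the list median was 83.3% and 53.8% in mESCs at 0 and 1 nt, and 33.3% in 5′ UTR sites of heart. DESeq2 called 13 hosts, an adjusted p of 0.05 called 18 hosts and 7336 genes, the replicate block 18 hosts and 6837 genes, and outer hosts alone gave 0. Leaving out 1 library gave 2761 to 5412 genes and 4 to 13 hosts; without WT replicate 1, KO replicate 1 and KO replicate 3 the genes were 3108, 2761 and 3109. Pcif1 turned to 0.00044 with library sizes alone, and mt-Rnr2 to −0.0087 without WT replicate 2, with up to 0.60 in the other fits without 1 library. Library sizes alone ended 7 calls of named genes. The cause of these changes was not tested beyond the smaller or larger set each alternative makes. Depth of the sites is unknown, which limits what an unlisted site means.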
